A study of Homo sapiens with 20 samples.

Results

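Keratin and claudin genes, the genes that give an epithelial cell its intermediate filaments and its tight junctions, were examined for histone H3 lysine 27 acetylation (H3K27ac), found at promoters and enhancers in use. The members were the protein-coding genes of the GENCODE annotation whose symbol is KRT or CLDN followed by a digit, which gave 79 genes, 55 keratins and 24 claudins, of 20033 protein-coding genes. A gene was counted as carrying H3K27ac in a library when a deposited peak overlapped its body or the 5 kb on either side. The libraries came from HCT-116, a human colorectal cancer cell line, either wild type (WT) or FBXW7-/- (KO, lacking the substrate receptor of an SCF ubiquitin ligase). Cells were transfected for 48 h with esiRNAs, enzymatically prepared small interfering RNAs, against a control (esiCT) or against the class IIa deacetylase HDAC4 (esiHDAC4), and were left untreated (UNT) or received the platinum drug oxaliplatin (OXPT, 50 µM) for the last 24 h. The groups, each with libraries A and B, were WT esiCT UNT, WT esiCT OXPT, WT esiHDAC4 UNT, WT esiHDAC4 OXPT and the same 4 in KO cells, 16 libraries in all. The study describes A and B as biological replicates. The labels add that 3 independent experiments were pooled, without saying how these relate to the letters, and p-values measure the spread between these libraries. One cell line stands behind every library, the sources used do not say whether the KO line is 1 clone, and the peak lists hold no reads with which the deletion or the silencing could be checked.

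Keratins form filaments as pairs of a type I and a type II chain. KRT8 and KRT18 are the first pair of simple, single-layered epithelia such as the gut lining, joined there by KRT19, KRT20 and, in some epithelia, KRT7, while other keratins belong to skin, to stratified epithelia and to hair. The type I genes lie in a cluster on chromosome 17 and the type II genes, together with KRT18, in one on chromosome 12. Claudins are the membrane proteins that seal tight junctions or, for some members, form pores in them.

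The libraries differed greatly in how much was called. The peak lists held 1766 to 27958 peaks and the super-enhancer (SE) lists 66 to 1267 entries, an SE being a stretch of neighbouring peaks that the ROSE program joined and ranked as exceptionally strong. KO libraries with the letter B had the shortest lists, 1766 to 8247 peaks, against 12666 to 21925 in KO A, 20169 to 27958 in WT A and 10590 to 27378 in WT B. Genotype and list length therefore moved together, and their parts in the differences below cannot be told apart, although the lists of the letter A were closer in length. Of 8 colon epithelium markers, EPCAM carried a peak in 15 libraries, CDX2 in 11, CDH1 in 10, GPA33 in 5 and HNF4A in 3, whereas VIL1 and CDX1 carried one in 1 library each and CDH17 in none. None of 8 fibroblast markers reached 12 libraries, with COL1A1 at 11 and VIM at 2, none of 5 leukocyte markers was called in more than 1 library, and the 3 endothelial markers CDH5, PECAM1 and VWF were called in 12, 11 and 10.

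At least 1 library had a peak at 49 of the 79 genes (62.0%, against 76.3% of all protein-coding genes). A peak in at least 12 libraries was found at 14 members (17.7%), against 25.3% of all genes. A peak in all 16 was found at 4 members (5.06%), against 1.99% of all genes. The windows searched were shorter for the members, with a median of 16.7 kb against 37.5 kb over all genes, so the shares are not of equal windows. Within 1 kb of an annotated start site, 10 members (12.7%) had a peak in at least 12 libraries, against 16.4% of all genes. An SE overlapped the window of 12 members (15.2%) in at least 1 library, against 7.04% of all genes, and of 5 members (6.33%) in at least 4 libraries, against 2.74%. The shares are a description, since the gene list was chosen with earlier results of these data known.

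The classes of keratins and claudins differed in how often they were called. Of the 5 simple epithelial keratins, KRT8, KRT18, KRT19 and KRT7 had a peak in at least 12 libraries and KRT20 had none in any. Of 20 keratins of stratified or specialised epithelia, KRT10, KRT13 and KRT15 reached 12 libraries, and of 17 hair keratins KRT39, KRT86 and KRT31 did so. None of the 9 root sheath keratins of the hair follicle did. These calls were often away from the start site. A peak within 1 kb of it was called in 0 libraries for KRT10 and KRT31, 2 for KRT86, 8 for KRT13, 13 for KRT15 and 14 for KRT39. Among 10 barrier-forming claudins, CLDN4 and CLDN7 reached 12 libraries, among 5 channel-forming claudins none did, and among the 9 other claudins CLDN6 did. KRT23, grouped with neither class, had a peak in 15 libraries. At the edge of this limit stood KRT7, KRT86 and KRT31 with 12 libraries and KRT36 with 11, and 35 members in all were called in 1 to 11 libraries, 9 of them in a single one.

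No peak was called in any library at 30 members. These were KRT20 among the simple keratins, KRT1, KRT3, KRT4, KRT6C, KRT9 and KRT76 among the stratified ones, KRT25, KRT26, KRT27, KRT71, KRT74 and KRT75 of the root sheath, KRT33A, KRT33B, KRT34, KRT40 and KRT82 of hair, and KRT24. The claudins without a call were CLDN1, CLDN5 and CLDN8 of the barrier-forming group, CLDN10, CLDN16 and CLDN17 of the channel-forming group, and CLDN20, CLDN22, CLDN24, CLDN25 and CLDN34. A missing call says only that no peak passed the authors' caller at the depth of these libraries.

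**Figure D1:**
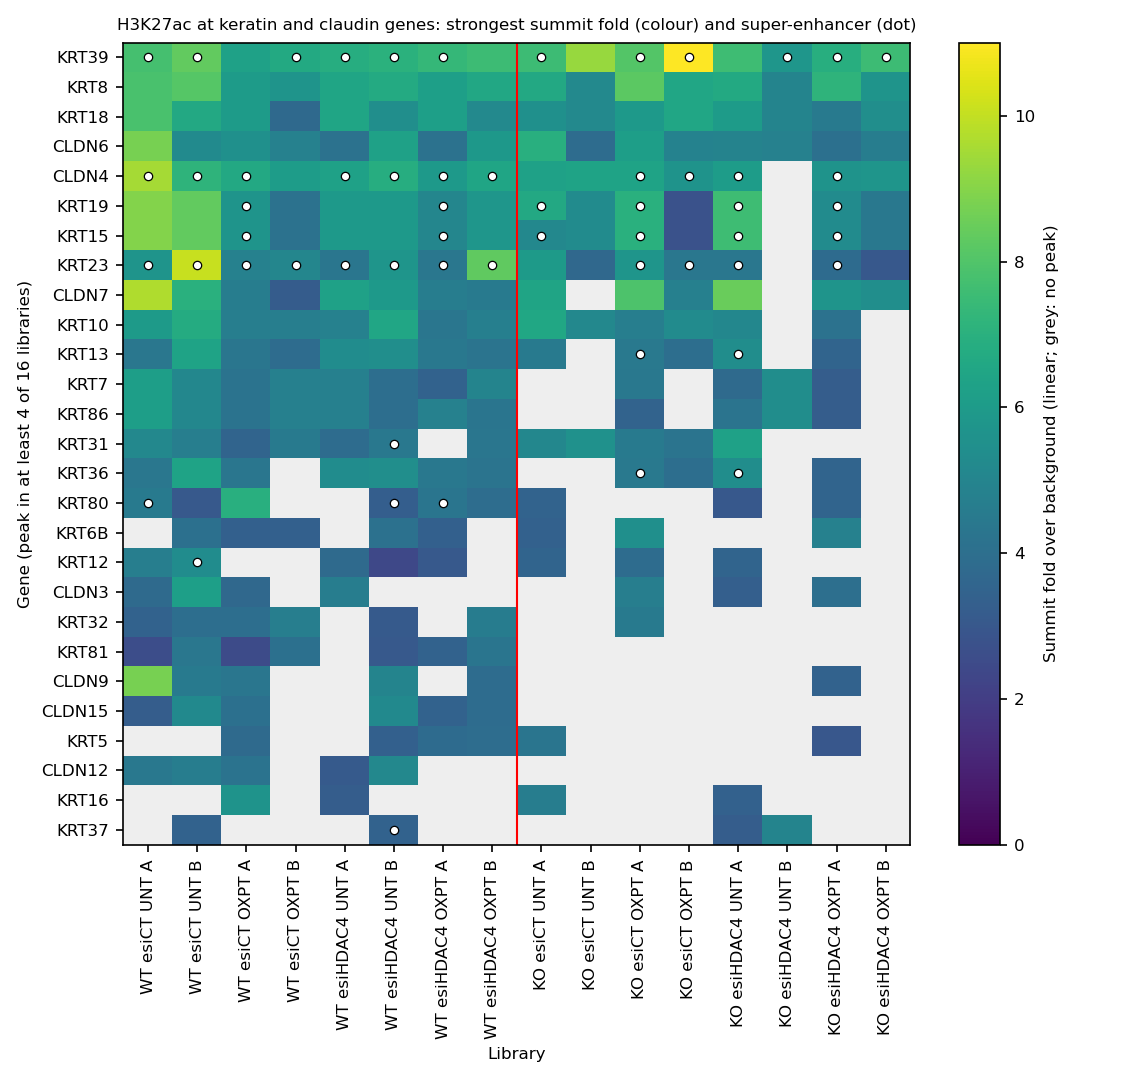
Each row is a keratin or claudin gene with a peak in at least 4 libraries and each column a library, with WT left and KO right of the red line. Colour gives the highest summit fold over background (linear), grey means no peak, and a white dot marks an SE in the gene's window. KRT39, KRT8, KRT18 and CLDN6 have no grey cell, and the column of KO esiHDAC4 UNT B, with 1766 peaks in its list, is mostly grey.

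The share of members called followed the share of all genes called from library to library. WT libraries had a peak at 19 to 31 members (median 26.5) and KO libraries at 8 to 26 (median 16). Over the same libraries, 27.4% to 64.5% of all genes were called in WT (median 54.0%) and 4.23% to 55.0% in KO (median 29.9%). The arms of the other comparisons differed less. The median was 21 members in esiCT and 21.5 in esiHDAC4, and 23.5 in UNT and 21.5 in OXPT. Over all genes the median was 46.2% in esiCT and 48.9% in esiHDAC4, and 53.2% in UNT and 46.1% in OXPT. In the shortest list, KO esiHDAC4 UNT B, 8 members (10.1%) still had a peak while 4.23% of all genes did, and this was the only library in which the members' share exceeded that of all genes.

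**Figure D2:**
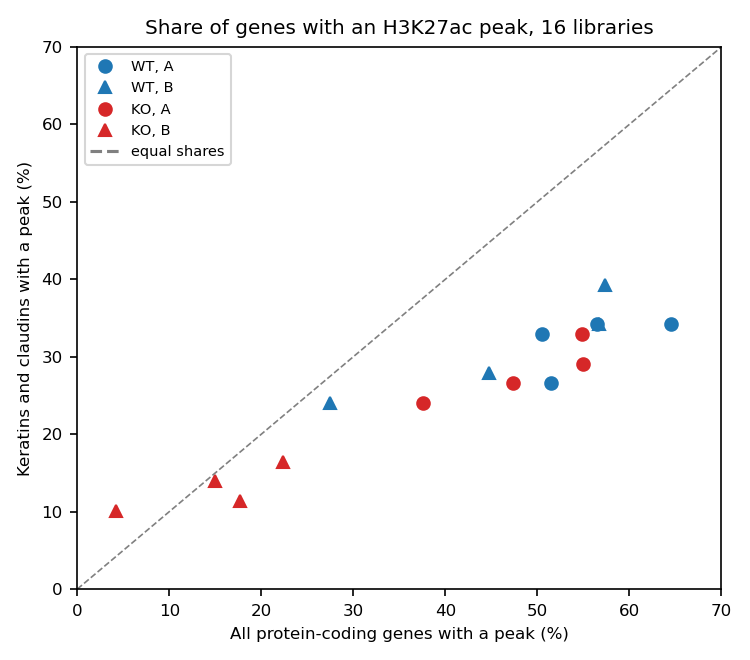
Each point is a library, placed by the percentage of all protein-coding genes (horizontal axis) and of the 79 keratins and claudins (vertical axis) with a peak. Blue is WT, red is KO, circles are letter A and triangles letter B, and the dashed line marks equal shares. The KO B libraries lie at the lower left, and 15 of 16 points lie below the line.

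Because keratins sit side by side, neighbouring genes shared peaks. The windows of the members held 138 merged peak regions (peaks of the 16 libraries that overlap by at least 1 base), of which 22 fell in the windows of more than 1 member, 81 were called in 1 library, 17 in at least 12 and 3 in all 16. Of the 138, 40 had their highest summit within 1 kb of a member's start site. The highest summit was one and the same for KRT15 and KRT19 in 14 libraries, for KRT13 and KRT36 in 11, and for KRT8 and KRT18 and for KRT7 and KRT86 in 7 each. Such pairs are not separate observations, and the regions below say where the signal lay. Positions are on hg38.

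KRT8 and KRT18 shared a region at chr12:52943395-52951699 that was called in all 16 libraries, with its highest summit 258 bases from a KRT18 start site, in an exon of KRT18 and of the longest KRT8 transcript. Of the further KRT8 regions, chr12:52902366-52908855 over an exon at a start site and chr12:52923432-52929108 at an upstream start site, were called in 15 libraries each, 8 WT and 7 KO, and the rest in 1 or 2. For KRT8 the highest summit fold, the enrichment over local background that the peak caller reports, was (libraries A and B) 7.85 and 8.11 in WT esiCT UNT, 6.05 and 5.70 in WT esiCT OXPT, 6.49 and 6.73 in WT esiHDAC4 UNT and 6.21 and 6.62 in WT esiHDAC4 OXPT. The KO libraries gave 6.65 and 5.20 in KO esiCT UNT, 8.23 and 6.52 in KO esiCT OXPT, 6.67 and 4.95 in KO esiHDAC4 UNT and 7.14 and 5.68 in KO esiHDAC4 OXPT. For KRT18, the type I partner, the fold was 7.85 and 6.66 in WT esiCT UNT, 6.05 and 3.75 in WT esiCT OXPT, 6.49 and 5.44 in WT esiHDAC4 UNT and 6.21 and 5.20 in WT esiHDAC4 OXPT. In KO cells the fold was 5.53 and 5.20 in KO esiCT UNT, 5.93 and 6.52 in KO esiCT OXPT, 6.04 and 4.95 in KO esiHDAC4 UNT and 4.56 and 5.42 in KO esiHDAC4 OXPT. The untreated WT esiCT libraries were the highest of the WT libraries for both genes, and the ranges of the genotypes overlapped. Those libraries were also the highest in the median fold over all genes called in all 16 libraries, with 7.72 and 6.78.

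KRT8 matched an entry in the RefSeq promoter table (GRCh38.p14), one of 53 members that did. Its sequence, chr12:52926420-52926719 on the minus strand, is shown because the upstream region of 15 libraries lies over it, and peaks of 14 libraries (8 WT, 6 KO) overlapped these 300 bases. The promoter of KRT20, chr17:40885193-40885492 on the minus strand, is shown beside it as that of the simple keratin with no call. Capitals mark matches on either strand to TATAAA (the TATA box), to CCAAT (the box of that name), to GGGCGG (the GC box) or to TGANTCA (the AP-1 motif, N being any base).
KRT8: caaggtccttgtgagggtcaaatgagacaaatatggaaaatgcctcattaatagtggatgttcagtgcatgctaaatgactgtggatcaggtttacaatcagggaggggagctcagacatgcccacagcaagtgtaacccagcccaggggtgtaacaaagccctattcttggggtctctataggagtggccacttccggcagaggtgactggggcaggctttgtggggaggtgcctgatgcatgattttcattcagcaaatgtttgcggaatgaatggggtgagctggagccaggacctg
KRT20: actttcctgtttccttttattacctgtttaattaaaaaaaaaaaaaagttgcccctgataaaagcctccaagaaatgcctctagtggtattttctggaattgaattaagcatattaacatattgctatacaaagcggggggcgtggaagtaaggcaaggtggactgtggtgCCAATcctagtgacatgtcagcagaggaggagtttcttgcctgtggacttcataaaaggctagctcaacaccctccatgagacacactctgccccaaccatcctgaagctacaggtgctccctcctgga
The KRT8 window held none of the 4 motifs and the KRT20 window held CCAAT at position 172, counted from 1 at its 5′ end. Over all promoters listed there, the TATA box was found in 11.5%, CCAAT in 34.6%, the GC box in 45.0% and the AP-1 motif in 7.71%. Among the 65 promoters of members the shares were 33.8% for the TATA box, 46.2% for CCAAT, 26.2% for the GC box and 6.15% for the AP-1 motif.

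KRT19, a small type I keratin of simple epithelia, lies beside KRT15, a keratin of basal cells. A region at chr17:41522112-41531939 with its highest summit in an intron of KRT19, 521 bases from a start site, was called in 15 libraries, and one in KRT15 at chr17:41518789-41521845 in 12. For KRT19 the highest fold was 8.95 and 8.36 in WT esiCT UNT, 5.71 and 4.13 in WT esiCT OXPT, 5.92 and 5.90 in WT esiHDAC4 UNT and 5.05 and 5.76 in WT esiHDAC4 OXPT. KO libraries read 6.64 and 5.32 in KO esiCT UNT, 6.98 and 2.79 in KO esiCT OXPT, 7.60 and no peak in KO esiHDAC4 UNT and 5.30 and 4.39 in KO esiHDAC4 OXPT. The untreated WT esiCT pair (8.95 and 8.36) stood above every other library, and the KO esiCT OXPT pair spread from 2.79 to 6.98. The untreated WT esiCT libraries also had the highest median fold over the genes called in all 16 libraries, 7.72 and 6.78, the next being 6.36. KRT7, a type II simple keratin, had a peak in all 8 WT and in 4 KO libraries. A region at chr12:52243513-52244909 was called in 7 WT and 2 KO. It lay at an annotated start site inside the gene, away from the gene's 5′ end.

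The strongest member by median fold was KRT39, a hair keratin on chromosome 17, although the signal lay beyond the gene's 3′ end. The region, chr17:40945135-40962283, reached into KRT39, and its highest summit lay between KRT23 and KRT39, while a peak within 1 kb of an annotated KRT39 start site was called in 14 libraries. The fold was 7.75 and 8.37 in WT esiCT UNT, 6.31 and 6.71 in WT esiCT OXPT, 6.87 and 7.04 in WT esiHDAC4 UNT and 7.33 and 7.56 in WT esiHDAC4 OXPT. In KO it was 7.55 and 9.31 in KO esiCT UNT, 8.07 and 11.01 in KO esiCT OXPT, 7.60 and 5.80 in KO esiHDAC4 UNT and 6.91 and 7.54 in KO esiHDAC4 OXPT. The highest value, 11.01, was that of KO esiCT OXPT B and the lowest, 5.80, that of KO esiHDAC4 UNT B, so both extremes were KO libraries. The 201 bases around the highest summit, chr17:40957421-40957621 on the plus strand of hg38, are shown because all 16 libraries had a peak over them, with the same motifs in capitals.
KRT39 region: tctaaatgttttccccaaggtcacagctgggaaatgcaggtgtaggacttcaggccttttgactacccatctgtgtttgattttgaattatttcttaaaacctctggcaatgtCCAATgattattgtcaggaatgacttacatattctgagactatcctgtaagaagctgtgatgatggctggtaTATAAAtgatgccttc
The window held CCAAT at position 114 and TATAAA at position 186. Windows of the same length at the highest summits of the 4511 regions called in at least 12 libraries held CCAAT in 18.5% and TATAAA in 10.4%.

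KRT23, an acidic keratin, had a region at its start site, chr17:40935924-40939896, in 15 libraries and another past its 3′ end, chr17:40907559-40923709, also in 15. For KRT23 the fold was 5.72 and 10.1 in WT esiCT UNT, 4.83 and 5.05 in WT esiCT OXPT, 4.32 and 5.75 in WT esiHDAC4 UNT and 4.35 and 8.30 in WT esiHDAC4 OXPT. The KO libraries gave 5.99 and 3.71 in KO esiCT UNT, 5.72 and 4.34 in KO esiCT OXPT, 4.35 and no peak in KO esiHDAC4 UNT and 3.85 and 3.03 in KO esiHDAC4 OXPT. The values 10.1 and 8.30 of the WT esiCT UNT B and WT esiHDAC4 OXPT B libraries stood apart from the other 13, which ran from 3.03 to 5.99. The summit of the 10.1 lay at chr17:40910320, more than 5 kb from the gene, in a peak that reached the window. Over that whole region the fold ran from 3.52 to 10.1, with 8.19 in WT esiCT UNT A and 8.48 in KO esiHDAC4 UNT A. The KRT23 fold, here and in the comparisons below, thus depends on how far each peak reached.

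SEs covered both flanks of KRT23. The downstream SE, within chr17:40895923-40933242, was called in 14 libraries (8 WT, 6 KO), with 12.04 to 37.3 kb (median 21.0). It reached KRT23's window in 8 WT and 4 KO libraries, since in KO esiCT UNT A and B it ended farther from the gene. The SE between KRT23 and KRT39, within chr17:40940240-40970561, was called in 12 libraries, 6 WT and 6 KO, with 9.83 to 30.3 kb (median 15.5). KRT20, the simple keratin on the other side of the downstream SE, had neither a peak nor an SE in its window.

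**Figure D3:**
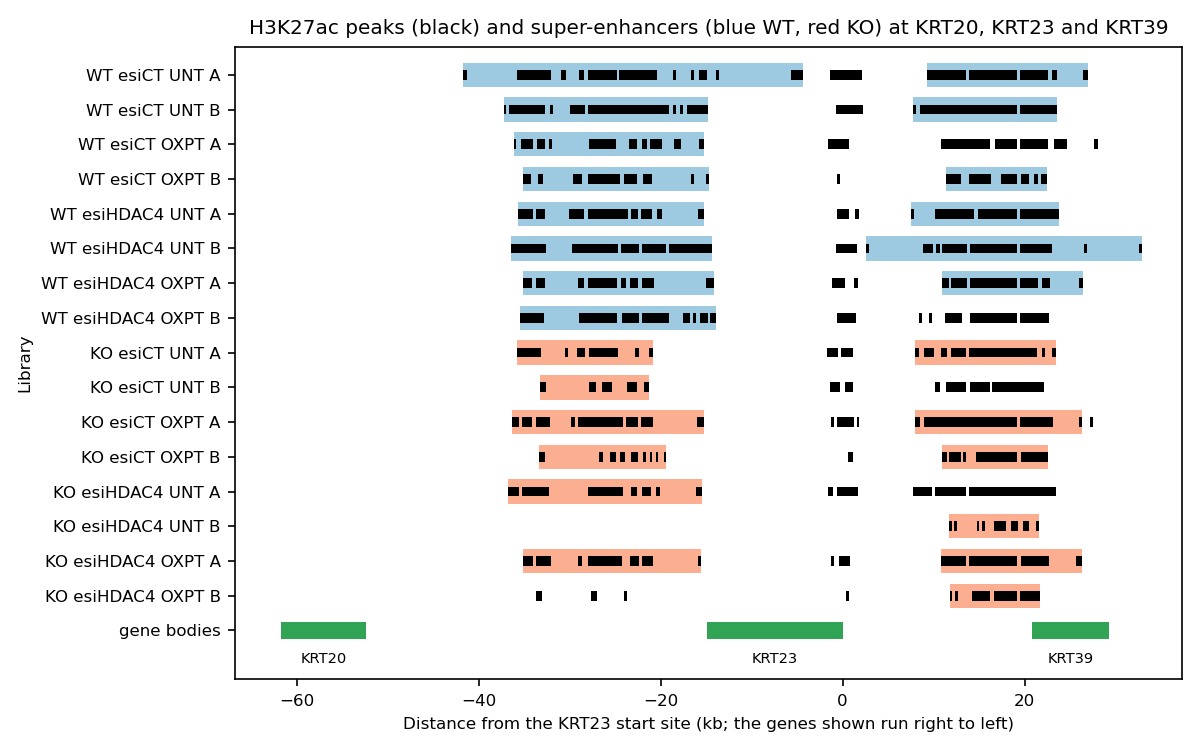
Each line is a library, with peaks in black and SEs as bars, blue in WT and red in KO, drawn to scale by distance in kb from the KRT23 start site, and gene bodies in green. The downstream SE is present in 14 libraries and the SE towards KRT39 in 12, and nothing is called over KRT20.

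CLDN4, a barrier-forming claudin, had 3 regions called in at least 12 libraries, chr7:73798218-73802371 in 15, chr7:73826563-73834497 in 14 and chr7:73808493-73810808 in 13. Its highest fold was 9.51 and 7.17 in WT esiCT UNT, 6.65 and 6.09 in WT esiCT OXPT, 6.30 and 6.85 in WT esiHDAC4 UNT and 5.94 and 6.45 in WT esiHDAC4 OXPT. In KO cells the fold was 6.30 and 6.37 in KO esiCT UNT, 6.40 and 5.64 in KO esiCT OXPT, 6.08 and no peak in KO esiHDAC4 UNT and 5.65 and 5.73 in KO esiHDAC4 OXPT. Apart from the 9.51 of WT esiCT UNT A and the missing call in KO esiHDAC4 UNT B, the values ran from 5.64 to 7.17. An SE overlapped its window in 11 libraries, 7 WT and 4 KO, with 3.27 to 59.2 kb (median 34.6). Among WT libraries only WT esiCT OXPT B had none, and among KO libraries the SE was called in KO esiCT OXPT A (34.2 kb) and B (3.27 kb), in KO esiHDAC4 UNT A (9.17 kb) and in KO esiHDAC4 OXPT A (12.6 kb). A further intronic region was called in 6 WT libraries and no KO library.

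CLDN7, another claudin of gut epithelium, had a peak in 14 libraries. It had regions over the gene body, chr17:7259721-7262421, and over its 5′ end, chr17:7262698-7265508, in 13 libraries each. Its fold was 9.69 and 6.99 in WT esiCT UNT, 4.67 and 3.19 in WT esiCT OXPT, 6.31 and 5.90 in WT esiHDAC4 UNT and 4.66 and 4.52 in WT esiHDAC4 OXPT. KO libraries read 6.42 and no peak in KO esiCT UNT, 7.95 and 4.81 in KO esiCT OXPT, 8.48 and no peak in KO esiHDAC4 UNT and 5.69 and 5.42 in KO esiHDAC4 OXPT. Within WT, all 4 OXPT libraries lay below all 4 untreated ones. The median fold over the genes called in all 16 libraries showed the same split in WT, 4.99 to 5.65 with OXPT against 6.33 to 7.72 untreated. Promoter sequences are shown for CLDN4, chr7:73830746-73831045 on the plus strand, for CLDN7, chr17:7263164-7263463 on the minus strand, and for CLDN12, chr7:90403211-90403510 on the plus strand, because these are the claudin start sites whose calls are described here.
CLDN4: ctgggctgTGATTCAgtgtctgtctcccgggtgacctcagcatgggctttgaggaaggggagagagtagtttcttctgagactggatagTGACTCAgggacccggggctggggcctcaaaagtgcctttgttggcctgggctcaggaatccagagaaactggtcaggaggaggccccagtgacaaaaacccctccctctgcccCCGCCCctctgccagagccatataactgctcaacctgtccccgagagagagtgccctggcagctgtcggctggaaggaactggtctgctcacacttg
CLDN7: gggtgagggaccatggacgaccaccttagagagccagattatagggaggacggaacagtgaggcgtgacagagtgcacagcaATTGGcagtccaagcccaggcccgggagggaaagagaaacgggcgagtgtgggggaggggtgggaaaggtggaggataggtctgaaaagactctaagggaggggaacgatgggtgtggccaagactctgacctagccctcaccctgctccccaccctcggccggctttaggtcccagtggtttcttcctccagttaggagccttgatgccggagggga
CLDN12: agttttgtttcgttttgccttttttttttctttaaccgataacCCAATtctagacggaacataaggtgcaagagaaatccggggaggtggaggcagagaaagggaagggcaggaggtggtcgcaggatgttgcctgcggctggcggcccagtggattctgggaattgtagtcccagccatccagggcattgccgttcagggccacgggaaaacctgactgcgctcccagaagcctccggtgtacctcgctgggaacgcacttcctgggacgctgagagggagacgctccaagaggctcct
The CLDN4 window held TGANTCA at positions 9 and 90 and GGGCGG, as its complement, at 204. The CLDN7 window held CCAAT, as its complement, at position 83, and the CLDN12 window CCAAT at 44. Peaks overlapped these very bases in 11 libraries at CLDN7 (6 WT, 5 KO), in 4 at CLDN4 (all WT) and in 2 at CLDN12 (both WT). A further CLDN7 promoter of the same source, chr17:7262429-7262728 on the minus strand, is not shown. It held GGGCGG, as its complement, at 155 and 249 and no CCAAT, and peaks of 2 libraries (1 WT, 1 KO) overlapped it.

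CLDN6, a claudin of early epithelia, was called in all 16 libraries, but the region, chr16:3019238-3025169, had its highest summit in an exon of TNFRSF12A, a neighbouring receptor gene. The fold in that window was 8.75 and 5.25 in WT esiCT UNT, 5.51 and 4.84 in WT esiCT OXPT, 4.16 and 6.31 in WT esiHDAC4 UNT and 4.15 and 5.89 in WT esiHDAC4 OXPT. In KO it was 6.93 and 3.90 in KO esiCT UNT, 6.17 and 4.86 in KO esiCT OXPT, 4.92 and 4.84 in KO esiHDAC4 UNT and 4.07 and 4.68 in KO esiHDAC4 OXPT. A peak within 1 kb of a CLDN6 start site was called in 12 libraries. CLDN9, which lies beside CLDN6, had a peak in 5 WT and 1 KO libraries, and CLDN3, next to CLDN4 on chromosome 7, had one over its own exon in 4 WT and 3 KO libraries with a fold of 3.33 to 6.20. CLDN2, a pore-forming claudin, was called in 3 libraries.

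**Figure D4:**
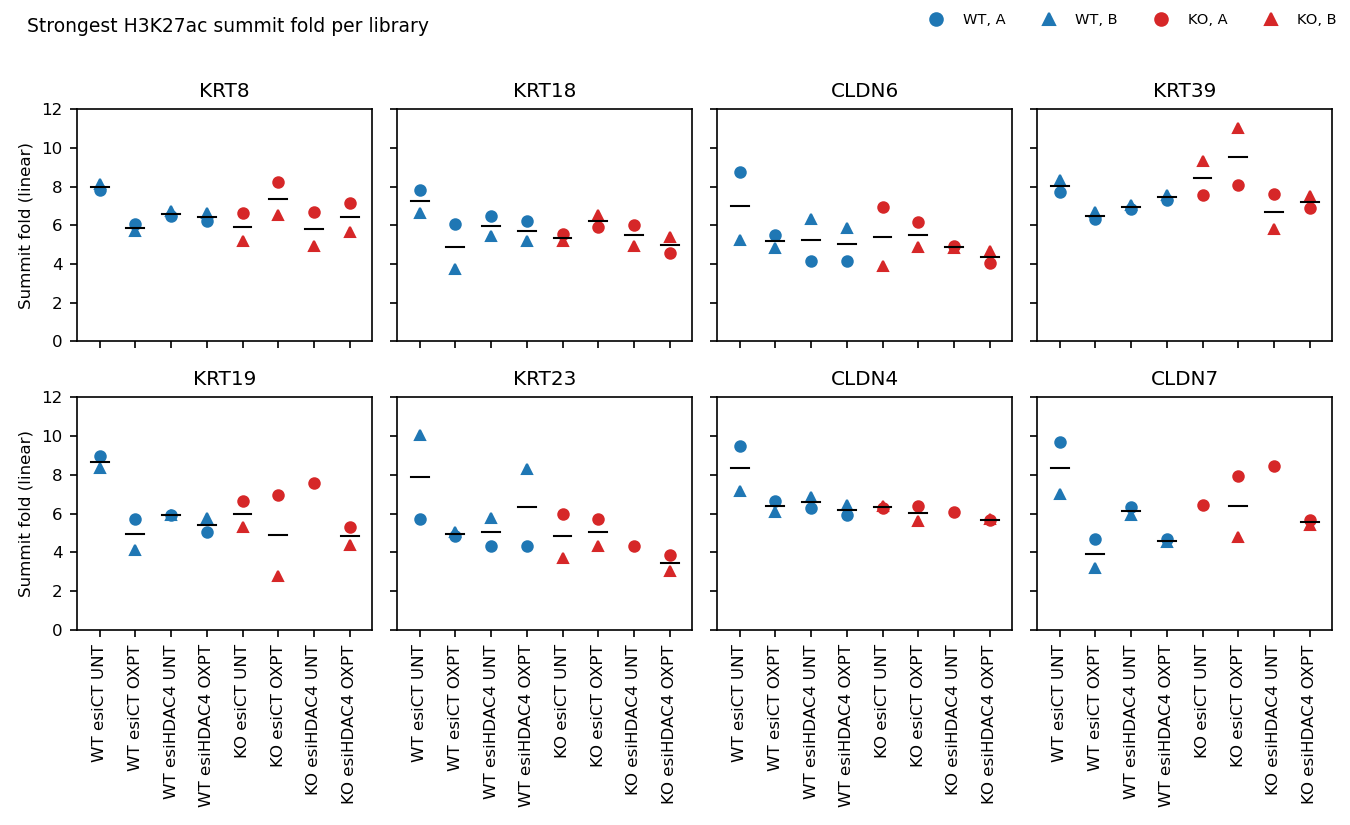
Each panel is a gene and plots the highest summit fold (linear, from 0) of each library against its group, with circles for letter A, triangles for letter B, blue for WT, red for KO and a bar at the mean where both libraries had a peak. KRT39 reaches 11.01 in KO esiCT OXPT B, and for CLDN7 the WT OXPT libraries (3.19 to 4.67) lie below the untreated WT libraries (5.90 to 9.69). The median fold over genes called in all 16 libraries splits the WT libraries in the same way.

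Among the other members, KRT10, a keratin of differentiating skin, had a region in its own exon, chr17:40817848-40820083, in 14 libraries, with a fold of 4.13 to 6.79. KRT13 and KRT36 shared a region between them, chr17:41494052-41501733, in 13. A region beyond KRT31, chr17:41398881-41403948, was called in 15 libraries but lay within 5 kb of the gene in 12. For KRT80 an SE at chr12:52143287-52186810 was called in 15 libraries but reached the gene's window in 3, all WT. Of the keratins of basal cells, KRT5 was called in 6 libraries and KRT14 and KRT17 in 3 each, whereas KRT15, beside KRT19, was called in 15.

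The first comparison asks whether the calls at keratins and claudins differed with FBXW7 loss. The number of libraries with a peak was compared between KO and WT by an exact conditional test (two-sided, with the letters A and B as strata), over the 10892 genes called in 3 to 13 libraries, 23 of them members. No member passed at an adjusted p (Benjamini-Hochberg over all genes tested) under 0.05, and neither did any other gene (0% called), whereas 1596 genes (14.7%) had an unadjusted p under 0.05, 1593 of them with fewer KO calls. Of the 23 members 20 (87.0%) were called in fewer KO than WT libraries, 1 in more and 2 in as many, against 89.9% of all genes with fewer. The median difference, KO minus WT, was -2 libraries for the members and -3 for all genes tested. A member called in only 3 libraries could not reach an unadjusted p under 0.05. For KRT222 the full split of 3 WT and 0 KO libraries gave p = 0.214 (exact test). The test says nothing of a difference at such members.

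An unadjusted p under 0.05 was found at 4 of the 23 members (17.4%, against the 14.7% of all genes). KRT81, a hair keratin, was called in 7 WT and 0 KO libraries (exact test, p = 0.00204, adjusted p = 0.235), with a WT fold of 2.53 to 4.36. CLDN15, a pore-forming claudin of the gut, was called in 6 WT and 0 KO libraries (exact test, p = 0.0102, adjusted p = 0.235), and CLDN12 in 5 and 0 (exact test, p = 0.0306, adjusted p = 0.235). KRT32, a hair keratin, was called in 6 and 1 (exact test, p = 0.0469, adjusted p = 0.320). Within the letter A, where the KO lists were longest, KRT81, CLDN15 and CLDN12 each had peaks in 3 of the 4 WT and in 0 of the 4 KO lists, and KRT32 in 2 and 1. With peaks of a fold of at least 4 alone, a setting chosen after the data were seen, the KO minus WT gap was -3 libraries for KRT81 and for CLDN15, -4 for CLDN12 and -1 for KRT32 (exact test, p = 0.143, 0.214, 0.0918 and 1). The folds at these genes were low, at most 5.24, against 7.85 to 11.01 for the highest values of the members called in all 16 libraries. The KRT81 peaks fell on chr12:52280635-52282223, in an intron of KRT86, and the region most often called at CLDN15, chr7:101243458-101245414, lay at the start site of the mitochondrial gene FIS1 and was called in 5 WT and 2 KO libraries when its part beyond 5 kb is counted.

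**Figure D5:**
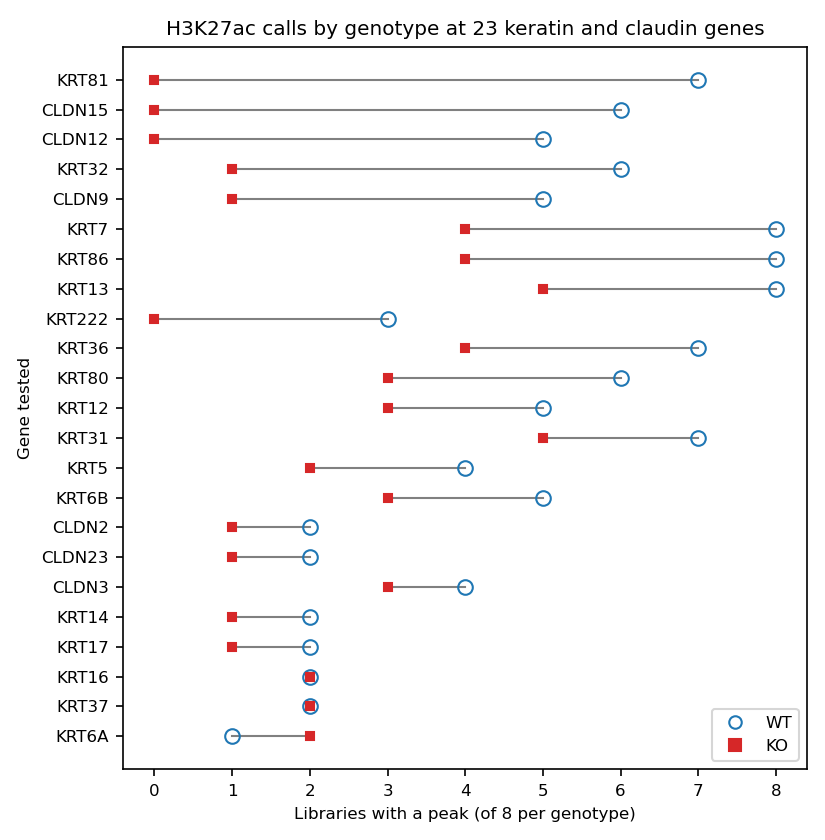
For each of the 23 members tested, the open blue circle gives the number of WT libraries and the red square the number of KO libraries with a peak, of 8 each. The square lies left of the circle for 20 genes, by 7 libraries for KRT81, 6 for CLDN15 and 5 for CLDN12 and KRT32.

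The same test over the 20090 merged regions called in 3 to 13 libraries, chosen after the data were seen, found 0 at an adjusted p under 0.05. At an unadjusted p under 0.05 it found 2740 (13.6%), 2725 of them with fewer KO calls. Of 30 member regions 28 were called in fewer KO libraries, and 4 had an unadjusted p under 0.05. These were the KRT81 region (7 WT, 0 KO, exact test, p = 0.00204, adjusted p = 0.208), the intronic CLDN4 region (6 WT, 0 KO, exact test, p = 0.00612, adjusted p = 0.258), the region at the internal KRT7 start site (7 WT, 2 KO, exact test, p = 0.0306, adjusted p = 0.258) and the KRT32 region (6 WT, 1 KO, exact test, p = 0.0469, adjusted p = 0.344).

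For SEs, 638 genes and 6 members could be tested. At an adjusted p under 0.05 there were 0 genes in any of the 3 comparisons (0% called), and at an unadjusted p under 0.05 there were 49 genes (7.68%) for KO against WT, 1 (0.157%) for esiHDAC4 against esiCT and 7 (1.10%) for OXPT against UNT, none of them a member. Of the 6 members 3 had an SE in fewer KO than WT libraries, 2 in more and 1 in as many. Over the 638 genes 508 had fewer KO calls. The median difference, KO minus WT, was -1.5 libraries for the members and -2 for all genes tested. KRT23 had an SE in its window in 8 WT and 4 KO libraries (exact test, p = 0.0714, adjusted p = 0.681), CLDN4 in 7 and 4, KRT39 in 6 and 6, and KRT15 and KRT19, which share it, in 2 and 4. Each WT library had an SE at 2 to 6 members and each KO library at 0 to 7.

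No difference in calls at these genes was detectable for HDAC4 silencing or for oxaliplatin, with the same limit for members called in few libraries. Between esiHDAC4 and esiCT libraries 9 of the 23 members were called in more and 10 in fewer (median difference 0), against 4041 and 3994 of all 10892 genes tested. At an adjusted p under 0.05 there were 0 genes and at an unadjusted one 12 (0.110%), none a member. The widest gap was at KRT31, with a peak in 4 esiHDAC4 and 8 esiCT libraries (exact test, p = 0.0918, adjusted p = 1). Between OXPT and UNT 8 members were called in more and 11 in fewer (median difference 0), against 2967 and 5356 of all 10892 genes tested. Here 0 genes had an adjusted p under 0.05 and 89 (0.817%) an unadjusted one, again none a member. KRT12, a keratin of the cornea, was called in 2 OXPT and 6 UNT libraries (exact test, p = 0.0918, adjusted p = 1), and KRT37, a hair keratin, in 0 and 4 (exact test, p = 0.0714, adjusted p = 1). Over the regions 44 (0.219%) and 426 (2.12%) had an unadjusted p under 0.05 in these comparisons, none of them in a member's window, and 0 an adjusted one.

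The height of the peaks was compared by limma on the log2 of the highest summit fold, for the 398 genes with a peak in all 16 libraries, after each library was centred on its median over these genes, with the group and the letter as terms. Only 5 genes (1.26%) differed between KO and WT at an adjusted p under 0.05, 3 higher and 2 lower in KO, and none was a keratin or claudin. Without centring there were 14, 3 higher and 11 lower, again with no keratin or claudin. At an unadjusted p under 0.05 there were 63 genes (15.8%), with KRT39 the only keratin or claudin among them. KRT39 was 0.23 higher in KO on the log2 scale (s.e. 0.092, limma adjusted p = 0.221). KRT8 differed by 0.03 (s.e. 0.092), KRT18 by 0.02 (s.e. 0.098) and CLDN6 by -0.03 (s.e. 0.14), with limma adjusted p of 0.940, 0.941 and 0.941. Without centring the differences were 0.12 for KRT39, -0.08 for KRT8, -0.09 for KRT18 and -0.14 for CLDN6, so the signs of KRT8 and KRT18 turned, and the median of all 398 genes was -0.10. Genes of this fit were called everywhere, so they say nothing of the members that were not.

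For esiHDAC4 against esiCT and for OXPT against UNT, 0 genes passed in limma (0% called), with 17 (4.27%) and 29 (7.29%) at an unadjusted p under 0.05. The members lay between -0.15 (CLDN6) and -0.01 (KRT18) for esiHDAC4 and between 0.01 (KRT18) and 0.18 (KRT39, s.e. 0.092, limma adjusted p = 0.714) for OXPT. Within single backgrounds 0 genes passed as well, with 12 (3.02%) at an unadjusted p under 0.05 for OXPT in WT esiCT, 21 (5.28%) for OXPT in KO esiCT, 23 (5.78%) for the difference between these responses and 20 (5.03%) for esiHDAC4 in KO OXPT. None of these lists held KRT8, KRT18, CLDN6 or KRT39.

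The centring matters for the response to oxaliplatin. The median fold of the 398 genes fell in WT esiCT cells from 7.72 and 6.78 untreated to 5.65 and 4.99 with OXPT, and read 5.79 and 5.402 untreated and 6.17 and 5.71 with OXPT in KO esiCT cells. KRT8, KRT18 and KRT39 followed the same course, lower with OXPT in both WT pairs and higher in both KO pairs. CLDN6 was lower with OXPT in both WT pairs too, but in KO esiCT it went from 6.93 to 6.17 in A and from 3.90 to 4.86 in B. Relative to the other genes of their library, KRT8 differed by 0.01 (s.e. 0.18) and KRT18 by -0.15 (s.e. 0.20) with OXPT in WT esiCT. Without centring the same differences were -0.44 and -0.60 (limma adjusted p = 0.101 and 0.0624), where the median of all 398 genes was -0.42. The response of KO minus that of WT was 0.23 (s.e. 0.26) for KRT8 and 0.28 (s.e. 0.28) for KRT18 with centring (limma adjusted p = 0.941 for both), and 0.76 and 0.81 without it (limma adjusted p = 0.0944 for both), where the median gene moved by 0.50.

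Members with gaps could be fitted with the missing libraries left out. Over genes called in at least 12 libraries, CLDN7 was 0.65 lower with OXPT in WT esiCT cells (s.e. 0.22, limma adjusted p = 0.464), and the fit had dropped KO esiCT UNT B and KO esiHDAC4 UNT B, where CLDN7 had no peak. Over all backgrounds CLDN7 was 0.27 lower with OXPT (s.e. 0.13, limma adjusted p = 0.614). The response of CLDN7 to OXPT was 0.68 higher in KO than in WT esiCT cells (s.e. 0.36, limma adjusted p = 0.922), with 1 library in the KO UNT arm, which is taken to vary like the other groups. With the shortest list, KO esiHDAC4 UNT B, left out, an alternative chosen after the data were seen, KRT19 was 0.31 lower with OXPT (s.e. 0.14, limma adjusted p = 0.722) and KRT23 0.30 lower in KO (s.e. 0.16, limma adjusted p = 0.392). No member passed the threshold in any of these fits.

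The partners of claudins and keratins at cell junctions were counted in the same way. Of 27 partner genes, all had a peak in at least 1 library, 18 (66.7%) in at least 12 and 4 in all 16, against the 25.3% and 1.99% of all genes. Their windows were longer, with a median of 60.8 kb against 37.5 kb, and the difference in share was not tested. Within 1 kb of a start site 15 partners (55.6%) had a peak in at least 12 libraries, against 16.4% of all genes. EPCAM and CDH1 stand in this list and among the colon epithelium markers. Of 12 tight junction partners 7 reached 12 libraries, of 5 adherens junction genes 3 and of 10 desmosome genes and keratin linkers 8. SEs in at least 4 libraries lay at 6 partners (22.2%), against 2.74% of all genes. They lay at DST, a linker of filaments to the membrane, in 15 libraries, and at PARD6B, a polarity protein, in 12. CTNND1, which binds cadherins, had one in 9, and JUP, PLEC and TJP3 in 6 each. Of 17 partners tested for presence, 16 were called in fewer KO libraries and 1 in as many, against 89.9% of all genes tested with fewer. An unadjusted p under 0.05 in the exact test was found at 2, against 14.7% of all genes, and an adjusted one at 0. In the fold comparison PARD6B was 0.39 lower in KO (s.e. 0.11, limma adjusted p = 0.107), and none of the 4 partners in the fit passed in any of the 7 comparisons.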

How the data were processed

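H3K27ac ChIP-seq of HCT-116 cells was analysed from the peak and SE lists of 16 libraries. The 4 input samples were not analysed here. The authors used Trimmomatic 0.39 for trimming, Bowtie2 2.4.4 for alignment to hg38, SAMtools 1.18 for the removal of duplicates, MACS2 2.2.7.1 for peaks of each library and ROSE for SEs. The deposited peak lists give a fold over background (a ratio), a score, and -log10 p and q values for each summit, of which the fold was used and the -log10 q in an alternative. The deposited SE lists give positions only, and the study kept SEs that carried H3K4me1 as well as H3K27ac, a filter that the lists themselves do not show. The study states a minimum number of reads for its libraries, but no list holds reads, so the depth of each library is unknown, no count model was run, and list length stands for what was detectable.

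Genes came from GENCODE 44. None of the 271550 peaks on 24 chromosomes ran past the end of its hg38 chromosome. A peak or SE belonged to a gene when it overlapped the gene body plus 5 kb, and the highest fold was kept. Presence was tested with an exact conditional test stratified by letter (SciPy 1.17.1) and log2 fold with limma 3.58.1 in R 4.3.3, both adjusted over all genes tested. The letter entered as in the study's own design. The correlation of A minus B differences between groups had a median of 0.103 over 28 pairs and was over 0.1 in 14, so the letters are not shown to pair the libraries.

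Genes were named by rule: a peak in at least 12 libraries, an SE in at least 4, a gap of 5 or more libraries between arms, the neighbours of the 12-library limit, up to 4 examples of each other list, and the uncalled members. Genes named outside this rule, such as KRT12, KRT37 and the rarely called keratins and claudins, were chosen after their values were seen. The members, classes and lists were chosen with earlier results of these data known.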

Additional observations from a re-analysis of the deposited data

How the results depend on the processing

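The 13 comparisons were recomputed under 270 alternatives, of which 259 left the count of genes past an adjusted p of 0.05 within 1.5 times of the one given. The 6 presence comparisons gave 0 genes with a 10 kb window, without the replicate block or with any library left out. The 3 on peaks also gave 0 with start sites only, a -log10 q of at least 10 or a fold of at least 4. A common fold threshold of 1.34 gave 0 as well, but left the test as it was and is no support. With it 1596, 12 and 89 genes again had an unadjusted p under 0.05 in the exact test. Without the replicate block for the letter the fold comparison of KO and WT gave 5 genes, all 5 shared with the fit that holds it, and the other 6 gave 0, so the block changed no call. Without centring the count was 14 for KO and WT, 5 for OXPT against UNT, 44 for OXPT in WT esiCT and 17 for the KO minus WT response. With start sites only KO against WT gave 1 gene of 136, and over genes called in at least 12 libraries 20 of 4699. Over genes called in all libraries but the shortest list, OXPT against UNT gave 1 of 1145. Leaving out 1 library gave 3 to 10 genes for KO against WT, 3 without WT esiHDAC4 UNT A, WT esiHDAC4 OXPT A or KO esiCT OXPT A and 10 without KO esiCT OXPT B. The cause was not tested. KRT81, CLDN15, CLDN12 and KRT32 kept fewer KO calls and KRT39 its higher fold in KO in all 101 alternatives that gave them a value, with adjusted p from 0.122 to 1. The genes compared by calls had been named for a gap of 5 or more libraries. Leaving out 1 library or the block could therefore not reverse it, and these alternatives are no support for the gap. The gap shrank with a fold of at least 4, from -7 to -3 for KRT81, -6 to -3 for CLDN15 and -5 to -1 for KRT32, and the KRT39 difference from 0.23 to 0.12 without centring.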

Other observations

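The SE lists held short entries in 5 libraries. Entries under 2 kb made up 7.98% of the list of KO esiHDAC4 UNT A, 2.35% of WT esiHDAC4 OXPT A, 2.25% of KO esiCT OXPT A, 1.14% of KO esiCT OXPT B and 0.552% of WT esiCT UNT B, and 0% of the other lists. The SE calls at KRT13 and KRT36 came from KO esiCT OXPT A and KO esiHDAC4 UNT A alone, with 1.44 to 2.48 kb in all per gene, and the one at KRT35, 0.461 kb long, from KO esiHDAC4 UNT A. At KRT19 the SE calls of these same libraries were 4.89 and 5.35 kb, against 16.4 kb in KO esiHDAC4 OXPT A and 27.9 kb in KO esiCT UNT A.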
